A study of Mus musculus with 6 samples.

Results

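The genes that encode the protein inhibitors of the cyclin-dependent kinases (CDKs) were followed in polyadenylated RNA of whole mouse testes at embryonic day 16.5. They are the 3 genes of the Cip/Kip family, Cdkn1a (protein p21), Cdkn1b (p27) and Cdkn1c (p57), and the 4 genes of the INK4 family, Cdkn2a (p16 and, from the same gene, p19Arf), Cdkn2b (p15), Cdkn2c (p18) and Cdkn2d (p19). They were chosen by symbol as the known members of both families, and each matched 1 of the 42747 gene rows. The libraries come from 3 cKO and 3 WT mice, as the design text counts them. The series title names the kinase CK1α (gene Csnk1a1) and Sertoli cells, which nurse the germ cells inside the cords, so cKO was read as a conditional knockout of that gene in those cells. No label used here tells the Cre driver, the deleted part, the mouse strain or the alleles of the WT mice.

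CDK inhibitors stop or slow cell division by binding the kinases that drive it. INK4 proteins bind CDK4 and CDK6 and keep D-type cyclins off them, whereas Cip/Kip proteins bind complexes of cyclins with several CDKs, among them cyclin E with CDK2. Cdkn1a is a textbook target of the tumour suppressor p53. Male germ cells of the mouse are in mitotic arrest at this stage of fetal life, while fetal Sertoli cells still divide.

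Csnk1a1, taken as the targeted gene, had 396, 405 and 377 CPM in cKO libraries and 371, 396 and 348 CPM in WT libraries and did not pass the test (0.08 on the log2 scale, edgeR adjusted p = 0.798). A count over the whole gene in a whole organ does not check the labels. Totals were 15092619 to 17431546 counts in cKO and 15281569 to 16646569 counts in WT, and tested genes had a median of 282 to 329 counts per library.

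In cKO testes 2 of the 7 genes, Cdkn1a and Cdkn1c, were higher than in WT testes and none was lower, by the quasi-likelihood test of edgeR with p-values adjusted (Benjamini-Hochberg) over 18383 tested genes at a threshold of 0.05. Over all tested genes 1.50% were called higher, 1.84% lower and 3.35% in either direction. All 7 passed the filter on low counts. The size of the change was unlike between the called genes, 18.2-fold for Cdkn1a and 1.83-fold for Cdkn1c. The counts at an unadjusted p under 0.05 were also 2 higher and 0 lower, and DESeq2 and limma-voom likewise called 2 higher and 0 lower. The share of all tested genes with an unadjusted p under 0.05 was not taken, so counts at that cut, here and below, have no background. An unadjusted edgeR p near 0.05 went with an adjusted p near 0.32 (0.0521 and 0.324 for Rrm2, a gene of DNA synthesis). The median log2 fold change of the 7 was 0.20, against 0.00264 over all tested genes.

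The promoters of Cdkn1a are printed because this gene carries the main difference, and that of Cdkn1b because it is a family relative that was not called. The windows run from 250 bases before to 50 bases after an annotated start and are those of RefSeq on GRCm38.p6, which lists 9 windows for 6 of the 7 genes. Cdkn1c had no window there and was not searched. Cdkn1a has 2 of them, 2.79 kb apart, at chr17:29090729-29091028 (upstream start, plus strand) and chr17:29093519-29093818 (downstream start, plus strand). The Cdkn1b window lies at chr6:134920151-134920450 on the plus strand. Capitals mark a match to the p53 response element, the GC box GGGCGG and the TATA box core TATAA, each on either strand.
Cdkn1a, upstream start: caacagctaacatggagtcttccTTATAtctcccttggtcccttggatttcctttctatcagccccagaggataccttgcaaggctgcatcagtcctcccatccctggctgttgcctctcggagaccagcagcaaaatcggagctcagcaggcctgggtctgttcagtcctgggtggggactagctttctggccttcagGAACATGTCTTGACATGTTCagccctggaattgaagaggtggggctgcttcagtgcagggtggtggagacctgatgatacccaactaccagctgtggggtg
Cdkn1a, downstream start: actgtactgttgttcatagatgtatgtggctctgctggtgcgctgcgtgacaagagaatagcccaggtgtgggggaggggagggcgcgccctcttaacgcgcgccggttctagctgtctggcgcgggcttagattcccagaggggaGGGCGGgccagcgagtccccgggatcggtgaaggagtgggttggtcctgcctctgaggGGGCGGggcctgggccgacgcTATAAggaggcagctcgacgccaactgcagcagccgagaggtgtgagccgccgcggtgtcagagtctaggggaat
Cdkn1b: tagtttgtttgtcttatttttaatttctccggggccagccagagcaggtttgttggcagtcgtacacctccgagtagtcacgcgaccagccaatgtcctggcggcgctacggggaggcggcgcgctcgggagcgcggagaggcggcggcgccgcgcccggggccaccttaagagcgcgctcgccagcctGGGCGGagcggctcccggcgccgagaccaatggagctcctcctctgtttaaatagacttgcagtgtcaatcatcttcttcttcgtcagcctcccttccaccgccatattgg

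The upstream Cdkn1a window held the 20-base match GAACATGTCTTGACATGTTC, centred 41 bases before the start, with 1 base off the consensus of the p53 response element. A match with up to 2 bases off, the core cytosines and guanines kept and no spacer between the half-sites was present in 107 of 32851 RefSeq promoter windows (0.326%), and in 22 (0.067%) with at most 1 base off. None of the other 8 windows searched held a match, and the motifs were chosen with the expression results known. The upstream window also held 1 TATAA on the other strand, 227 bases before the start, and no GC box. The downstream Cdkn1a window held 2 GC boxes and a TATAA that begins 25 bases before the start, and 23 CpG pairs against 2 in the upstream window. The Cdkn1b window held 1 GC box and no TATAA. The GC box was present in 35.7% and the TATA box core in 24.9% of all windows. These matches describe letters only, and counts per gene do not tell which Cdkn1a start was in use.

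Cdkn1a encodes p21, which halts the cell cycle after DNA damage and other stress. It lies at 29733095 to 29744217 on the plus strand of chromosome 17 in coordinates of the C57BL/6NJ assembly, as deposited. It had 76.1, 73.7 and 61.2 CPM (counts per library size, scaled by TMM) in cKO libraries 1, 2 and 3, against 5.29, 3.33 and 2.93 CPM in WT libraries 1, 2 and 3. The lowest cKO library was thus far above the highest WT library, and the cKO values lay closer to each other in proportion (coefficient of variation 11.4% in cKO and 32.8% in WT). The underlying counts were 1156, 1109 and 1064 in cKO and 85, 50 and 49 in WT. Its log2 fold change of 4.19 had an SE of 0.22 and a 95% confidence interval of 3.71 to 4.67, that is 13.0-fold to 25.5-fold (edgeR adjusted p = 5.06e-06). Only 2 tested genes had a smaller p. In whole-organ RNA, more cells that make a transcript and more transcript per cell cannot be told apart.

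Cdkn1c encodes p57, an inhibitor from an imprinted gene that is expressed from the maternal copy and is known from the exit of embryonic cells from division. It lies at 154124303 to 154127003 on chromosome 7, minus strand. It had 197, 285 and 216 CPM in cKO libraries 1, 2 and 3, against 126, 154 and 102 CPM in WT libraries 1, 2 and 3. The groups did not overlap, as was the case for 21.6% of all tested genes, and all cKO values were above all WT values, as for 10.7% of them. Its log2 fold change of 0.87 had an SE of 0.177 and a 95% confidence interval of 0.48 to 1.26 (edgeR adjusted p = 0.0218). This call was lost without cKO library 3 (adjusted p = 0.0748), without WT library 1 (0.103), without WT library 3 (0.12) and on the deposited FPKM values with limma (0.0705 and 0.0741 with pseudocounts of 1 and 0.1). The direction stayed, with log2 fold changes of 0.70 to 1.04 over the 15 alternatives.

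**Figure D1:**
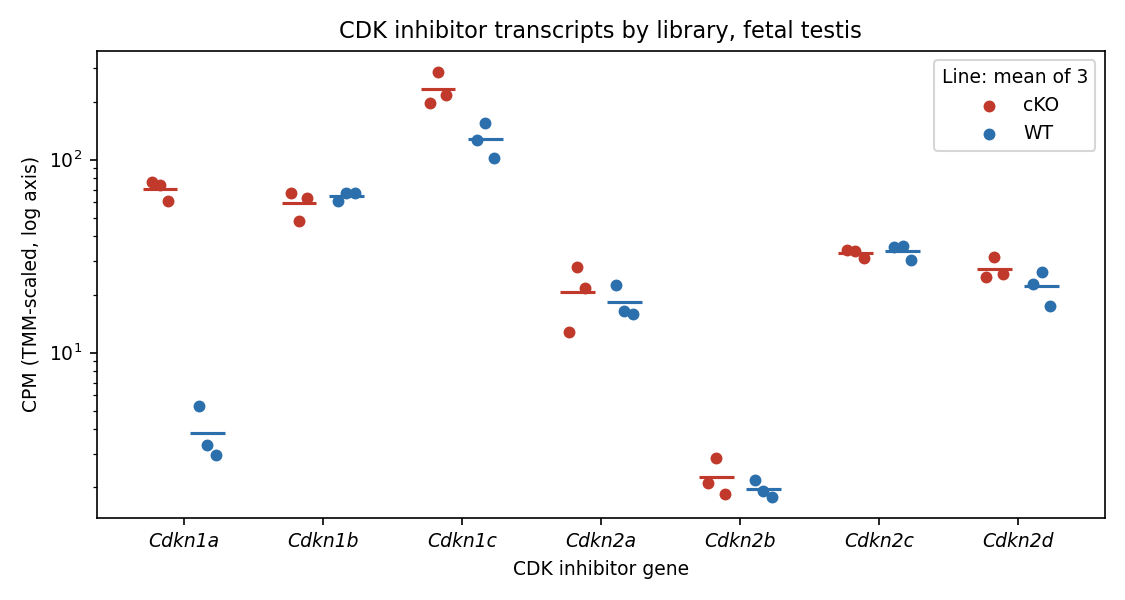
CPM of each CDK inhibitor gene (log axis) in the 3 cKO and 3 WT libraries, 1 point a library and a line at the group mean. The cKO points of Cdkn1a sit at 61.2 to 76.1 CPM and the WT points at 2.93 to 5.29 CPM, those of Cdkn1c are apart by less, and the groups of the other 5 genes overlap.

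Levels of cell type markers in the same libraries stand beside these values. Of 9 tested interstitial cell markers none was called by edgeR or limma-voom and 3 were called higher by DESeq2 (7 higher and 0 lower with an unadjusted p under 0.05), and their summed level was 12720, 20883 and 19343 CPM in cKO libraries 1, 2 and 3 against 8785, 14113 and 12174 CPM in WT libraries 1, 2 and 3. The sum of the 8 fetal Leydig cell markers ran from 5126 to 6994 CPM in cKO and from 3939 to 4605 CPM in WT, with none of 7 tested called by edgeR, 3 called higher by DESeq2 and 1 by limma-voom (4 higher at an unadjusted p under 0.05). The sum of the 12 Sertoli cell markers ran from 1181 to 1562 CPM in cKO and from 2651 to 3533 CPM in WT. Of the 12, 10 were called lower and none higher by edgeR. Sox8 (log2 fold change -2.78), Cst9 (-2.37) and Dhh (-1.56) had the smallest p of these, and the abundant Clu fell by 0.86 on that scale, a call lost in 5 of 15 alternatives (among them without cKO library 3 or WT library 2 or 3, adjusted p up to 0.093). The count of Sertoli cell markers called lower was 7 to 11 over the alternatives, and 7 without cKO library 3 or any single WT library. The 2 not called with all libraries were Gata4 (-0.48, edgeR adjusted p = 0.0579) and Wt1 (0.23, edgeR adjusted p = 0.37). Wt1 went the other way, with a mean of 200 CPM in cKO and 171 CPM in WT. The sum of the 10 matched germ cell markers, 659 to 1164 CPM in cKO and 980 to 1417 CPM in WT, overlapped between the groups. Of the 9 tested, none was called by edgeR, and their median log2 fold change was -0.34. Before adjustment 3 of the 9 had an edgeR p below 0.05, each with a lower level in cKO. Across the 15 alternatives 0 to 2 germ cell markers were called lower and 0 higher. Of 6 further marker lists 4 had 1 gene called higher by edgeR, Des for peritubular myoid, Kdr for endothelial, Hba-a1 for erythroid and Emx2 for mesonephric cells, while macrophage and adrenal cortex markers had 0 (1 and 0 at an unadjusted p under 0.05). The medians of those 4 lists were 0.02, 0.19, 0.85 and 0.16. Their sums overlapped between the groups, except the mesonephric one (99.3 to 116 CPM in cKO, 88.8 to 99.0 CPM in WT). Peritubular Acta2 (-0.19) and Actg2 (-0.17) and endothelial Pecam1 (-0.10), Cdh5 (-0.12) and Flt1 (-0.12) were lower without a call. In the mesonephric list 1 marker was lower at an unadjusted p under 0.05. Of 15 alternatives, the call was lost for Des in 6 (among them without cKO library 1 or any single WT library), for Hba-a1 in 5 (among them without cKO library 3 or WT library 1 or 3), for Kdr in 3 (without cKO library 3 or WT library 1 or 3) and for Emx2 in 1 (without WT library 3). No matched marker of these 10 lists was at 0 in all libraries, and their part in the values of Cdkn1a and Cdkn1c was not tested.

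Cdkn1b, whose protein p27 keeps cells in quiescence, was not called. It lies at 142998422 to 143005389 on chromosome 6, plus strand, and had 66.9, 48.2 and 63.3 CPM in cKO libraries 1, 2 and 3, against 60.9, 67.5 and 67.0 CPM in WT libraries 1, 2 and 3. The groups overlapped, and cKO library 2 was the low value. The 95% confidence interval of the log2 fold change, -0.45 to 0.18 around -0.13 (edgeR adjusted p = 0.713), held changes from 0.734-fold to 1.13-fold.

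None of the 4 INK4 genes was called. Cdkn2d, which encodes p19, had 24.8, 31.2 and 25.5 CPM in cKO libraries and 22.6, 26.1 and 17.4 CPM in WT libraries 1, 2 and 3 (log2 fold change 0.30, interval -0.10 to 0.70, edgeR adjusted p = 0.467). The groups overlapped through WT library 2. It lies at 19232816 to 19235562 on chromosome 9, minus strand. Cdkn2c, which encodes p18, gave the narrowest interval of the 7 genes. It lies at 114417409 to 114423418 on chromosome 4, minus strand, and had 33.9, 33.8 and 30.8 CPM in cKO libraries and 35.2, 35.6 and 30.2 CPM in WT libraries (log2 fold change -0.04, interval -0.33 to 0.26, edgeR adjusted p = 0.925). A change of Cdkn2c beyond 0.794-fold or 1.20-fold lay outside that interval.

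Cdkn2a and Cdkn2b are neighbours, at 92597506 to 92621052 and 92632692 to 92637435 on the minus strand of chromosome 4, 11.6 kb apart. Cdkn2a is transcribed from separate starts into p16, an INK4 inhibitor, and p19Arf, which stabilises p53 by binding its ubiquitin ligase Mdm2, and the counts per gene merge both transcripts. It had 12.8, 27.7 and 21.5 CPM in cKO libraries 1, 2 and 3, against 22.5, 16.5 and 15.8 CPM in WT libraries. The cKO libraries held both the lowest and the highest value, a coefficient of variation of 36.3% (20.0% in WT), at a log2 fold change of 0.18 (interval -0.39 to 0.75, edgeR adjusted p = 0.8). Cdkn2b, which encodes p15, rested on 32, 43 and 32 counts in cKO and 35, 29 and 30 counts in WT, or 2.11, 2.86 and 1.84 CPM in cKO and 2.18, 1.93 and 1.79 CPM in WT. Its interval, 0.65-fold to 2.04-fold (log2 fold change 0.20, edgeR adjusted p = 0.849), was the widest of the 7, and a rise of 2-fold lay within it.

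**Figure D2:**
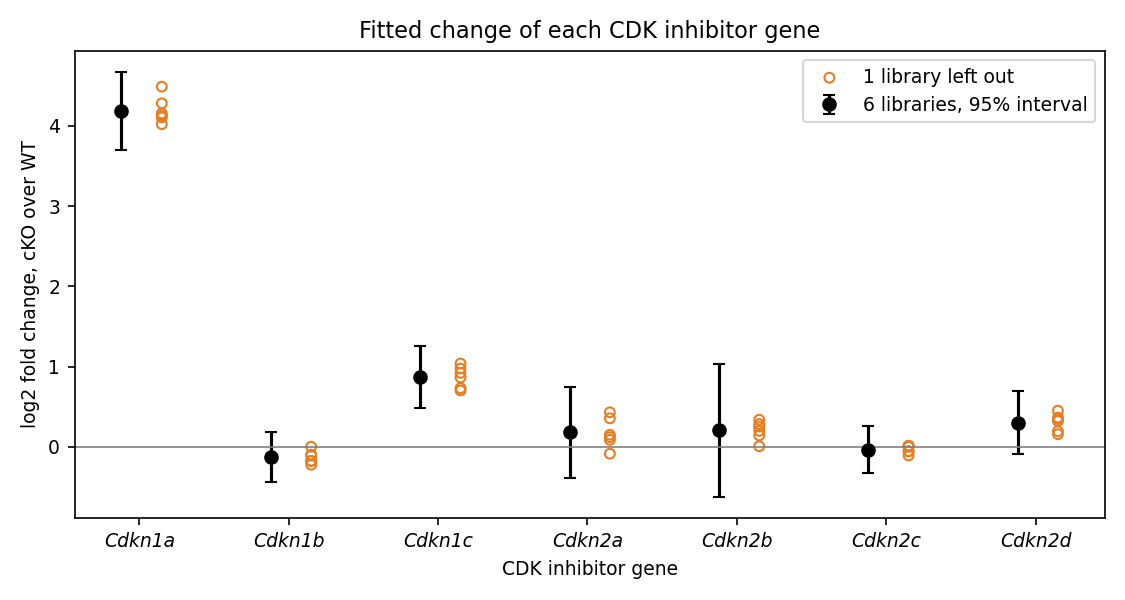
Fitted log2 fold change of each gene, cKO over WT, with its 95% confidence interval (black) and the values with 1 library left out (open circles). Cdkn1a stays at 4.02 to 4.49 and Cdkn1c at 0.70 to 1.04, while the intervals of the other 5 genes include 0.

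The change of Cdkn1a was set against that of each other gene within the libraries. On the log2 scale Cdkn1a stood 0.25 ± 0.332 above Cdkn1b in cKO and -3.95 ± 0.478 relative to it in WT (mean ± SD, n = 3 each). The ratio of Cdkn1a to the other 6 genes differed between the groups by 3.19 for Cdkn1c to 4.20 for Cdkn1b, and for each of the 6 the cKO ratios were all above the WT ratios. An exact permutation test, two-sided, gave p = 0.1 for each of the 6 ratios, also after Benjamini-Hochberg adjustment over them. That is the smallest p that 3 against 3 libraries allow, so this test cannot reach 0.05.

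Levels of the genes were compared per length with the deposited FPKM values. In cKO testes Cdkn1c came highest at 120 ± 23.7 FPKM (SD, n = 3 here and below), and Cdkn1a was second at 31.4 ± 3.57 FPKM, apart from Cdkn1c above it and from Cdkn2d below it (21.2 ± 2.75 FPKM). Below these, Cdkn2d, Cdkn2a (17.5 ± 6.37 FPKM), Cdkn1b (13.0 ± 2.15 FPKM) and Cdkn2c (12.1 ± 0.643 FPKM) overlapped each with the next, and Cdkn2b came last at 1.62 ± 0.377 FPKM. In WT testes Cdkn1c was also highest at 65.3 ± 13.6 FPKM, followed by Cdkn2d at 17.1 ± 3.44, Cdkn2a at 15.4 ± 3.00, Cdkn1b at 14.2 ± 0.868, Cdkn2c at 12.4 ± 1.10, Cdkn1a at 1.71 ± 0.552 and Cdkn2b at 1.40 ± 0.132 FPKM. Cdkn2d overlapped with Cdkn2a, Cdkn2a with Cdkn1b and Cdkn1a with Cdkn2b in the WT order. Among all tested genes the mean FPKM of Cdkn1a stood at percentile 89.7 in cKO and 28.2 in WT, and that of Cdkn1c at 98.5 and 96.5.

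Although Cdkn1a had the larger fold change, Cdkn1c made up more of the difference in summed level. The 7 genes summed to 194, 252 and 203 FPKM in cKO libraries 1, 2 and 3, against 131, 144 and 107 FPKM in WT libraries 1, 2 and 3. Of the difference between the group means, 88.9 FPKM, Cdkn1c gave 54.3 FPKM (61.1%) and Cdkn1a 29.7 FPKM (33.4%). Cdkn1a held 17.5%, 13.1% and 13.4% of the sum in cKO libraries and 1.79%, 1.03% and 1.21% in WT libraries. Cdkn1c held 55.0 ± 2.91% in cKO and 50.9 ± 3.47% in WT. The share of Cdkn1b was 6.17 ± 1.76% in cKO and 11.3 ± 1.99% in WT, while its own FPKM overlapped between the groups. The 4 INK4 genes together came to 52.4 ± 9.23 FPKM in cKO and 46.3 ± 6.12 FPKM in WT. These sums and shares are descriptions with no test, and a level of RNA is not a level of protein.

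**Figure D3:**
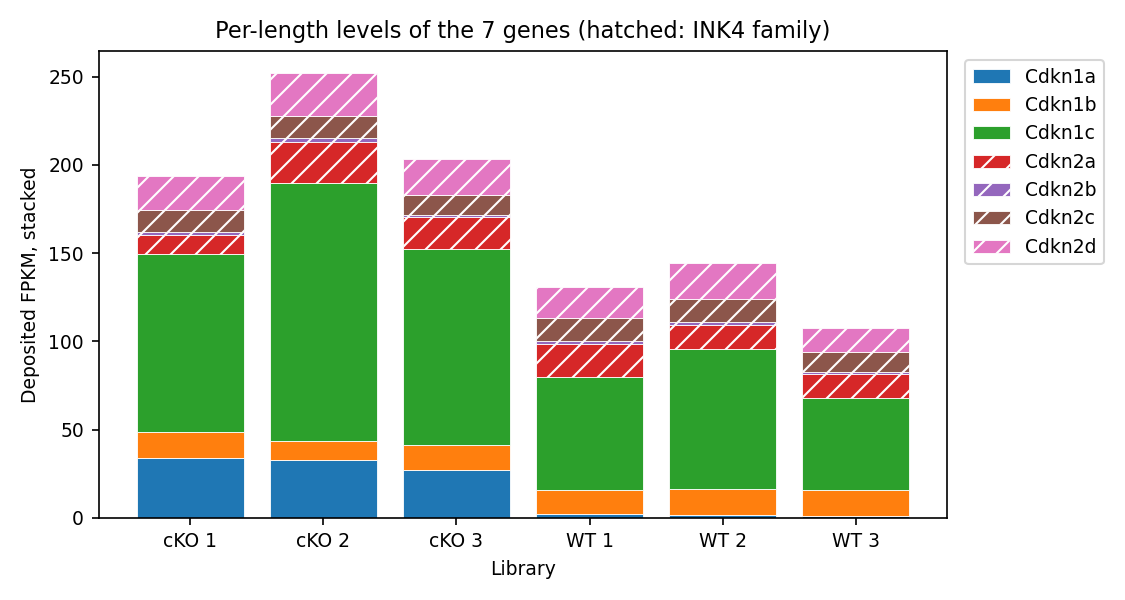
Deposited FPKM of the 7 genes stacked for each library, with the 3 cKO libraries left of the 3 WT libraries and the INK4 genes hatched. The stacks reach 194 to 252 FPKM in cKO and 107 to 144 FPKM in WT, with Cdkn1c the largest part of every stack and Cdkn1a visible mainly in cKO.

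Among the genes around Cdkn1a on the chromosome, Trp53cor1 was the one called. This gene gives lincRNA-p21, a long noncoding RNA known as a p53 target, and lies 15.7 kb before the start of Cdkn1a on the other strand. It had 5.79, 4.99 and 3.11 CPM in cKO libraries 1, 2 and 3, against 0.933, 0.333 and 0.0598 CPM in WT libraries 1, 2 and 3. The groups did not overlap, on counts of 88, 75 and 54 in cKO and 15, 5 and 1 in WT. Its log2 fold change was 3.37 with an SE of 0.636 (edgeR adjusted p = 0.0143), and without WT library 2 the adjusted p was 0.0737. The other 7 tested genes within 200 kb of Cdkn1a, Kctd20, Stk38, Srsf3, Rab44, Cpne5, Ppil1 and BC004004, had log2 fold changes of -0.27 to 0.24 and were not called. No gene of the table overlapped any of the 7 CDK inhibitor genes. Of the tested genes within 200 kb of the other 6, none was called by edgeR, among them Kcnq1ot1 (-0.29, edgeR adjusted p = 0.602) and Phlda2 (-0.42, edgeR adjusted p = 0.64) in the imprinted region of Cdkn1c.

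**Figure D4:**
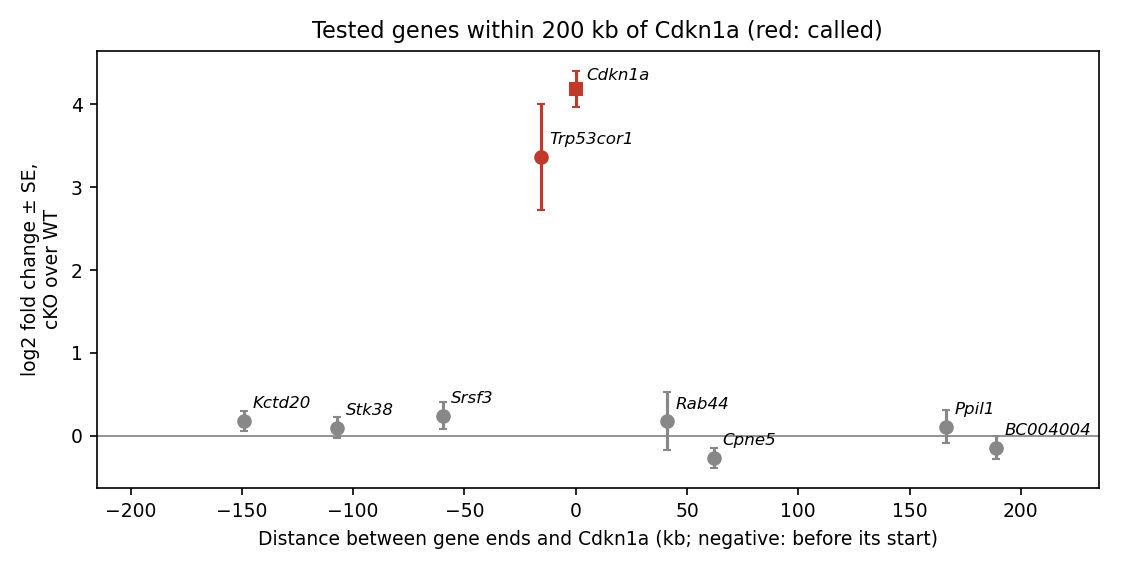
Log2 fold change (cKO over WT, bars are SE) of the 8 tested genes within 200 kb of Cdkn1a by their distance from it, with Cdkn1a as a square at 0. Trp53cor1, at 15.7 kb before Cdkn1a, is the only one of the 8 called and the other 7 lie between -0.27 and 0.24.

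The genes nearest in pattern to Cdkn1a were Notum, Kcng1, Sp5, Ano3 and Rnf43. Likeness was the root mean square difference of log2 values, each gene centred on its mean over the 6 libraries, among 13521 protein-coding genes that averaged 2 CPM or more, and for these 5 it was 0.375, 0.411, 0.652, 0.69 and 0.787. Notum encodes an enzyme that inactivates Wnt proteins and had 35.8 ± 3.48 CPM in cKO and 2.70 ± 0.851 CPM in WT. Sp5 and Rnf43 are known targets of Wnt signalling, Kcng1 encodes a potassium channel subunit and Ano3 a member of the anoctamin family. As these 5 were picked for their likeness over the same 6 libraries, their higher levels in cKO are no separate result. Whether they share a regulator with Cdkn1a was not tested. For Cdkn1c the nearest were Bax, which promotes cell death (0.0465), Dhrs7, a dehydrogenase gene (0.0952), and Chst2, a sulfotransferase gene (0.097). Bax had 74.3, 107 and 78.5 CPM in cKO libraries 1, 2 and 3, against 46.8, 53.2 and 38.5 CPM in WT libraries 1, 2 and 3. Its order of libraries within each group was that of Cdkn1c. As Bax was picked for its likeness over these same 6 libraries, that order is no separate result. Bax (log2 fold change 0.91, edgeR adjusted p = 0.0138) and Chst2 (0.80, edgeR adjusted p = 0.0439) were called higher and Dhrs7 was not (0.73, edgeR adjusted p = 0.0825). This split is not firm. The call of Bax was lost in 3 of 15 alternatives, among them those without WT library 1 or 3 (adjusted p up to 0.0883), and that of Chst2 in 6, among them those without cKO library 2 or 3 or WT library 1 or 3 (adjusted p up to 0.233), while Dhrs7 was called higher in 4 of 15 (adjusted p down to 0.00159).

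Of 16 tested cyclins and CDKs, the proteins that CDK inhibitors bind, 1 was higher and none lower by edgeR, DESeq2 and limma-voom (5 higher and 1 lower with an unadjusted p under 0.05). The called gene was Ccnd1, which encodes a D-type cyclin, of the kind that INK4 proteins keep off CDK4 and CDK6, with 33.4, 32.8 and 28.8 CPM in cKO libraries and 19.1, 21.4 and 20.4 CPM in WT libraries. Its groups did not overlap (edgeR adjusted p = 0.0329, log2 fold change 0.64 with an SE of 0.142), but the call was lost in 7 of 15 alternatives, among them every one that left out a library except cKO library 2. Ccnd2 and Ccnd3, also D-type cyclin genes, were more abundant and were not called, though their groups did not overlap either. Ccnd2 had means of 644 CPM in cKO and 503 CPM in WT (0.36, edgeR adjusted p = 0.224). Ccnd3 had means of 270 CPM in cKO and 216 CPM in WT (0.32, edgeR adjusted p = 0.197). The list of cyclins and CDKs had a median of 0.03.

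Of 17 retinoblastoma-type pocket proteins, E2F factors and partners, 1 was lower and none higher by edgeR (0 higher and 3 lower with an unadjusted p under 0.05, 2 lower by DESeq2 and 1 by limma-voom), with a median of -0.15. It was E2f6, a repressing member of the E2F family, with a mean of 82.5 ± 7.63 CPM in cKO against 115 ± 1.82 CPM in WT (-0.48 on the log2 scale, edgeR adjusted p = 0.0445, lost in 8 of 15 alternatives). Neither edgeR, DESeq2 nor limma-voom called any of 12 genes for the turnover of CDK inhibitor proteins (median 0.01), while 1 higher and 2 lower had an unadjusted p under 0.05. Cks2 (-0.50, edgeR adjusted p = 0.134) and Rnf123, a subunit of a ubiquitin ligase for p27 (0.38, edgeR adjusted p = 0.238), had the smallest p there. Skp2, also listed for turnover, was not matched to a gene row and so was not tested.

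Of 27 genes whose products regulate CDK inhibitor genes, 1 was higher and 1 lower by edgeR, 2 and 1 by DESeq2 and 1 and 1 by limma-voom (3 higher and 4 lower with an unadjusted p under 0.05, median -0.03). Tbx3, a T-box repressor known to act on Cdkn2a and Cdkn1a, was higher with a mean of 31.6 ± 4.56 CPM in cKO against 19.1 ± 2.02 CPM in WT (0.73 on the log2 scale, edgeR adjusted p = 0.0337, lost in 8 of 15 alternatives). Mycn, a growth-promoting relative of Myc, was lower at 30.6, 33.6 and 25.5 CPM in cKO libraries against 47.9, 57.2 and 48.3 CPM in WT libraries 1, 2 and 3. Its groups did not overlap (edgeR adjusted p = 0.0146, log2 fold change -0.77 with an SE of 0.147), and the call was lost in 4 of 15 alternatives, those without cKO library 3 or any WT library.

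Some other known targets of p53 were higher beside Cdkn1a. Of 25 tested, 13 were higher and none lower by edgeR, DESeq2 and limma-voom (15 higher and 0 lower with an unadjusted p under 0.05), with a median log2 fold change of 0.60 against 0.00264 over all tested genes. The 5 with the smallest p were Ccng1, the cyclin G1 gene (174 ± 17.5 CPM in cKO and 64.9 ± 1.47 CPM in WT), Eda2r, a receptor of the TNF family (34.9 ± 6.06 and 9.69 ± 1.71 CPM), Psrc1 (91.3 ± 8.01 and 37.7 ± 4.69 CPM), Trp53inp1 (102 ± 16.6 and 43.4 ± 1.09 CPM) and Zmat3 (86.5 ± 12.6 and 40.5 ± 6.45 CPM), each pair given as cKO and WT. Their log2 fold changes were 1.09 to 1.85, below the 4.19 of Cdkn1a. The other 12 tested were not called by edgeR, among them Sesn1 (0.17), Gadd45a (0.20), Sesn2 (-0.18), Tigar (-0.17) and Fas (-0.41). Nor did edgeR call Trp53 (-0.09, edgeR adjusted p = 0.829) or Mdm2 (0.18, edgeR adjusted p = 0.631), both counted with the regulators above. The count of p53 targets called higher was 7 when any single WT library was left out and 8 on log2(FPKM + 0.1). The list was drawn up with earlier results of these data known and is no independent evidence of its direction.

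None of 25 tested genes of DNA synthesis and mitosis was called by edgeR or limma-voom and 1 was lower by DESeq2 (0 higher and 7 lower with an unadjusted p under 0.05), with a median of -0.13. Plk1, a mitotic kinase, had 46.9 ± 8.57 CPM in cKO against 69.6 ± 5.44 CPM in WT (-0.57 on the log2 scale, edgeR adjusted p = 0.0692) and was called lower in 3 of 15 alternatives. Bub1, a spindle checkpoint kinase, had 68.8 ± 3.21 CPM in cKO and 93.4 ± 14.1 CPM in WT (-0.44, edgeR adjusted p = 0.114). Without cKO library 1 the count of lower genes was 2. Of 15 genes linked to senescence, the lasting arrest in which p21 and p16 are known to act, 8 were tested and 0 were called with edgeR, with DESeq2 or with limma-voom (median 0.01), while 2 higher and 0 lower had an unadjusted p under 0.05. Igfbp7 (0.45, edgeR adjusted p = 0.185) and Igfbp5 (0.38, edgeR adjusted p = 0.243), both binding proteins of the insulin-like growth factor system, had the smallest p.

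**Figure D5:**
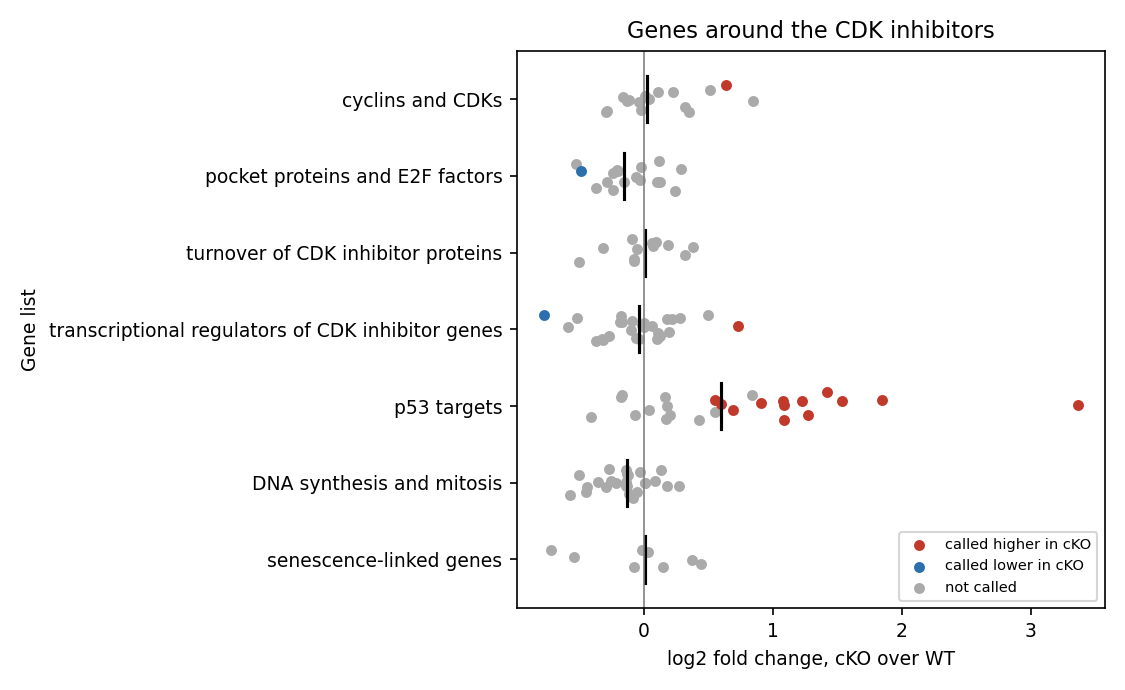
Log2 fold change (cKO over WT) of every tested gene in 7 lists of the pathway, 1 point a gene, coloured by edgeR call, with a black line at each median. The p53 targets lie furthest to the right with a median of 0.60 and 13 called higher, and the medians of the other 6 lists lie between -0.15 and 0.03.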

How the data were processed

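Polyadenylated RNA of whole testes was sequenced in 6 libraries. The submitters' processing notes name HISAT2 2.0.5 and GRCm38, while 41096 of 42747 rows of the deposited tables carry C57BL/6NJ identifiers, so coordinates are those of the files. No source used here gives the counting tool or its strand setting. The deposited counts are whole numbers per gene, not normalised, and the deposited FPKM values are per gene length and library, per the file headers. Here the counts were filtered with filterByExpr and fitted with edgeR 4.0.16 in R 4.3.3 (TMM, glmQLFit, glmQLFTest, no covariate), with p-values adjusted over 18383 genes at 0.05. SE is the log2 fold change over the square root of F. Ratios between genes used log2(CPM + 0.5). FPKM served for levels between genes. The biological coefficient of variation was 19.7%, which is the spread between libraries apart from counting error. Counting error weighs most in rare genes.

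The replicates of a group were distinct libraries (their counts gave a chi-square of 13.5 to 40.5 for each degree of freedom) and each counted once. Alternatives used DESeq2 1.42.0, limma 3.58.1, other scalings, filters and pseudocounts, a replicate block and each library left out. The members and gene lists were chosen with earlier results of these data known. Named genes were the members, up to 5 called genes per direction and pathway list (or the 2 with the smallest p), genes within 200 kb, the nearest patterns (5 for Cdkn1a, 3 for Cdkn1c), Csnk1a1 and leading cell markers, of which some are not printed. Some uncalled genes are given beside these to show the rest of a list.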

Additional observations from a re-analysis of the deposited data

How the results depend on the processing

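Cdkn1a was called higher under all 15 alternatives, at log2 fold changes of 3.59 to 4.49 and adjusted p up to 0.000272. The number of CDK inhibitor genes called higher was 2, but 1 with limma on log2(FPKM + 0.1) or log2(FPKM + 1) and 1 to 2 with a library left out, in each case through Cdkn1c, and the number called lower was 0 throughout. The cause was not tested. Genes not called changed sign near 0 when a library was dropped, with the log2 change of Cdkn1b running from -0.224 to 0.000478, that of Cdkn2a from -0.0868 to 0.429 and that of Cdkn2c from -0.109 to 0.0136. The 6 ratios of Cdkn1a to another gene kept their direction in all 9 alternatives each. Over all genes, 276 higher and 339 lower became 498 and 539 with DESeq2, 149 and 223 on log2(FPKM + 0.1), 156 and 241 on log2(FPKM + 1), 613 and 651 without a low-count filter, and 105 to 342 and 167 to 399 with 1 library left out. List counts and other named genes were put through the same alternatives after the data were seen, and the endothelial marker Cdh5, not called, ran from -0.370 to 0.102 there, against -0.125 with all 6 libraries. Deviations of same-numbered libraries from their group means correlated at -0.00407, 0.204 and 0.027. While cKO library 1 correlated best with WT library 3 (0.192), cKO libraries 2 and 3 correlated best with the same-numbered WT library. With 3 libraries a group these correlations cannot decide whether the label numbers pair the libraries. A fit with the replicate block called 324 higher and 372 lower, with 2 CDK inhibitor genes higher and 0 lower. Depth limits Cdkn2b, at 29 to 43 counts a library.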
